A study of Mus musculus with 10 samples.

Results

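Retnla, Retnlg and Chil3 encode small secreted proteins of mouse myeloid cells, and their mRNA was followed across 10 RNA-seq libraries of sorted macrophages. The 3 genes were taken by symbol from a deposited table of 12535 genes. They were selected on their FPKM in these libraries, all 3 having been seen to differ strongly between groups, so those levels and the differences between groups are given as a description, with no test. The 3 groups were tumour-associated macrophages (TAM) of mice labelled C57/BL6 Ahr fl/fl Lys M (cKO-labelled TAM, n = 3), TAM of mice labelled C57/BL6 Ahr fl/fl (control TAM, n = 3) and macrophages of the healthy pancreas of C57/BL6 WT mice (resident macrophages, n = 4). The floxed Ahr allele encodes the aryl hydrocarbon receptor and is shared by both TAM groups. Lys M denotes the lysozyme locus, Lyz2, which drives Cre in macrophages, monocytes and neutrophils alike. Both TAM groups came from tumours 14 days after cells of the KPC pancreatic adenocarcinoma organoid line MT4 had been placed in the pancreas, and resident macrophages came from mice without a tumour. All cells were sorted as positive for CD45, CD11b and F4/80, and the age of the mice is not given in the sources used here.

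Retnla and Retnlg belong to the resistin-like family, short cysteine-rich proteins that are secreted into tissue and blood. Retnla, also called RELM-alpha or FIZZ1, is induced by interleukin 4 and interleukin 13 through the transcription factor STAT6 and is a standard mark of alternatively activated mouse macrophages, and resident macrophages of several tissues also express it. Retnlg is best known from neutrophils and bone marrow myeloid cells. Chil3, also called Ym1, has the fold of a chitinase but no chitin-cleaving activity, is induced by interleukin 4 in macrophages, and is also made by monocytes and neutrophil precursors.

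Retnla (ENSMUSG00000061100, GRCm38 chromosome 16, 48842551 to 48844461, plus strand, protein-coding) and Retnlg (ENSMUSG00000022651, chromosome 16, 48872621 to 48874496, plus strand, protein-coding) are neighbours whose annotated starts lie 30070 bases apart. Chil3 (ENSMUSG00000040809, chromosome 3, 106147554 to 106167564, minus strand, protein-coding) lies 51943 bases from its closest relative Chil4 (start to start). The sequences before the start of these 4 genes are shown because the paired relatives had similar promoters but different levels across the groups. Each runs 5′ to 3′ on the gene's strand from 250 to 61 bases before the RefSeq start (190 bases, build GRCm38.p6), and capitals mark the letters TTCNNNNGAA, the spacing that STAT6 prefers, or TTCNNNGAA, the spacing of other STAT proteins.
Retnla, chr16:48842359-48842548: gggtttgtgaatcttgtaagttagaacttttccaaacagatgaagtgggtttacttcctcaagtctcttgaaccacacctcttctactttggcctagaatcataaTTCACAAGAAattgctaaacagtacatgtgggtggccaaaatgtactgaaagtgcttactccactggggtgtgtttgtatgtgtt
Retnlg, chr16:48872358-48872547: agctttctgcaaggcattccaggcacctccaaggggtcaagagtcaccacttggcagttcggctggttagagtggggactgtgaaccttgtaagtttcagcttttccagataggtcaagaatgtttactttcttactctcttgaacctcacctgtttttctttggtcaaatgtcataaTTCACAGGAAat
Chil3, chr3:106167625-106167814: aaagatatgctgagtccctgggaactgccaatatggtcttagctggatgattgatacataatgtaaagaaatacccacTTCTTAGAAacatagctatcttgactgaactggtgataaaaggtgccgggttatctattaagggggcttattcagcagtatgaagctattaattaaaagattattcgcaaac
Chil4, chr3:106219540-106219729: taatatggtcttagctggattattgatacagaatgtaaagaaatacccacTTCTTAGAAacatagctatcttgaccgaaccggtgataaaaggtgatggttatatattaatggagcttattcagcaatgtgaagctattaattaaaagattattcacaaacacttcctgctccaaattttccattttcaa

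Both resistin-like windows held 1 match to TTCNNNNGAA, and both chitinase-like windows held 1 match to TTCNNNGAA. Among 32851 RefSeq windows of the same length, 4.54% held the STAT6-type letters and 5.51% the shorter spacing, searched on both strands. The best local alignment joined 117 columns of the Retnla and Retnlg windows at 76.9% identity and 161 columns of the Chil3 and Chil4 windows at 91.9%. The C/EBP core TTGCNNAA was found once each before Retnla, Retnlg and Chil4 and not before Chil3 (7.77% of all windows held it). The PU.1 core AGGAAGT was found once each before Retnla and Chil4 and not before Retnlg or Chil3 (5.31% of all windows). The core that the aryl hydrocarbon receptor binds, GCGTG, was in none of the 4 windows, and 21.2% of all windows held it. A match describes the letters only.

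Library depth, recovered from the low values of the table, was 16616946 to 25621786 reads in cKO-labelled TAM, 10127789 to 15017903 in control TAM and 10836532 to 15031425 in resident libraries. Levels are the authors' FPKM (fragments relative to gene length and library size), given as mean ± SD over libraries. Ahr itself ran from 9.65 to 11.2 FPKM in cKO-labelled TAM, from 6.91 to 7.51 in control TAM and from 3.84 to 4.46 in resident libraries. Because exons outside the floxed part count towards this value, it does not check the deletion. Lyz2, the locus of the Cre, was at 11460 ± 203 FPKM in cKO-labelled TAM, 19904 ± 85.1 in control TAM and 28140 ± 477 in resident libraries (limma adjusted p = 9.39e-13 between the TAM groups). The macrophage genes Csf1r, Adgre1 (F4/80) and Cd68 were expressed in every library. The labels do not tie each library to a mouse, so the p-values below measure the spread between these libraries, which may be partly technical. Control TAM and resident macrophages differ in the floxed Ahr allele as well as in the tumour, so those cannot be told apart. In bulk libraries, fewer cells of a type and less RNA per cell cannot be told apart.

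Of the 3 genes, Retnla was the one with its highest level in the macrophages of the healthy pancreas. Its level was 1219, 1391 and 1307 FPKM in cKO-labelled TAM, 235, 238 and 251 FPKM in control TAM, and 10896, 9925, 9853 and 10388 FPKM in resident libraries. Every resident library lay above every TAM library, and every cKO-labelled library lay above every control library. By mean level Retnla stood at place 5 of all genes in resident libraries, at place 43 in cKO-labelled TAM and at place 252 in control TAM. It held 0.253% to 0.282% of all FPKM in cKO-labelled TAM, 0.0512% to 0.0542% in control TAM and 1.86% to 2.0005% in resident libraries.

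The mean of Retnla in cKO-labelled TAM was 5.41 times that in control TAM, a log2 difference of 2.43 on the log2(FPKM + 1) scale. The mean in control TAM was lower than that in resident libraries by a factor of 42.5 (log2 difference -5.40). The mean in cKO-labelled TAM was lower than that in resident libraries by a factor of 7.86 (log2 difference -2.98).

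Retnlg, the neighbour of Retnla, was abundant in both TAM groups and close to undetected in resident libraries. It was at 1336, 1491 and 1434 FPKM in cKO-labelled TAM, at 1150, 1169 and 1179 FPKM in control TAM, and at 0.236, 0.304, 0.680 and 0.109 FPKM in resident libraries. The resident values correspond to about 2, 2, 5 and 1 reads, while each TAM library held 7019 to 21786. The gene passed the filter on low values through the TAM libraries only. Its mean in cKO-labelled TAM was 1.22 times that in control TAM (log2 difference 0.28), with no overlap between the 2 groups. The mean was 1166 ± 14.9 FPKM in control TAM and 0.332 ± 0.245 FPKM in resident libraries (log2 difference 9.79). By mean level Retnlg stood at place 37 in cKO-labelled TAM, at place 44 in control TAM and at place 11588 in resident libraries.

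Chil3 was also far higher in both TAM groups than in resident libraries, but between the TAM groups its order was the opposite of that of Retnlg. It was at 262, 269 and 266 FPKM in cKO-labelled TAM, at 400.3, 395 and 402 FPKM in control TAM, and at 2.24, 2.64, 1.99 and 2.55 FPKM in resident libraries. Every control library lay above every cKO-labelled library, and every resident library lay far below both. The mean in cKO-labelled TAM was 0.666 times that in control TAM (log2 difference -0.59), and the mean in control TAM was 169 times that in resident libraries (log2 difference 6.90). The resident levels rest on 37 to 59 reads a library.

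**Figure D1:**
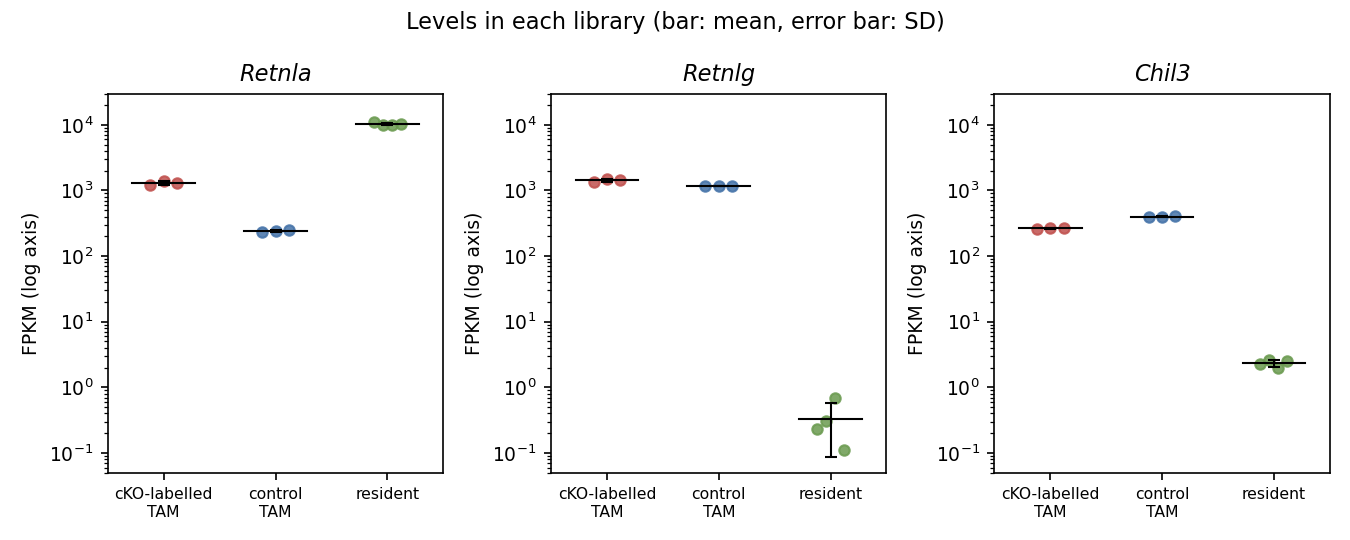
FPKM of Retnla, Retnlg and Chil3 (log axis) in each of the 10 libraries, with cKO-labelled TAM, control TAM and resident macrophages from left to right, 1 point per library, bars at the mean and error bars of 1 SD. Retnla was lowest in control TAM (235 to 251 FPKM), Retnlg highest in cKO-labelled TAM (1336 to 1491 FPKM) and Chil3 highest in control TAM (395 to 402 FPKM).

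The 3 genes thus had 3 different orders of groups, and in no pair of groups did the libraries of a gene overlap. The same lack of overlap was seen in 51.4% of the 11127 genes tested between cKO-labelled and control TAM, in 73.9% between control TAM and resident libraries, and in 75.5% between cKO-labelled TAM and resident libraries. The ratio of Retnla to Retnlg within a library was 0.911 to 0.933 in cKO-labelled TAM and 0.204 to 0.213 in control TAM. In resident libraries that ratio was 14488 to 94945, with only 1 to 5 reads of Retnlg behind it. The longest Retnla and Retnlg transcripts were 82.0% identical but shared none of their windows of 50 bases, so reads of that length would not match both exactly.

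Relatives of these genes were set beside them. Of 11 other resistin-like and chitinase-family genes listed, 4 were measured and tested, all of the chitinase family, and the other 7 were not analysed here. Between cKO-labelled and control TAM 1 rose and 2 fell, against 20.5% of all genes tested that rose and 19.1% that fell (limma, adjusted p under 0.05). The 1 that rose was Chil4, which was tested only because its cKO-labelled libraries passed the filter on low values. Between control TAM and resident libraries all 4 rose, against 39.0% of all genes that rose and 38.1% that fell. Of these, Chil1 passed the filter on low values through the TAM libraries only. When each library was rescaled to a common total, 32.9% of the calls were higher in the first comparison, against 51.8% as deposited, and 65.9% in the second, against 50.6% as deposited. That rescaling moved the median change of all genes from 0.00 to 0.18 on the log2 scale in the second comparison.

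Chil4, also called Ym2, is the closest relative of Chil3 and is likewise inducible by interleukin 4 and interleukin 13. It was at 3.83, 4.76 and 5.12 FPKM in cKO-labelled TAM, at 0.353, 0.513 and 0.303 FPKM in control TAM, and at 0.187, 0, 0.215 and 0.0864 FPKM in resident libraries. Chil4 rose in cKO-labelled against control TAM (log2 change 1.9988 ± 0.11, SE, limma adjusted p = 1.01e-09), the direction opposite to that of Chil3. It passed the filter on low values through the cKO-labelled libraries only, the group in which it was high. These values rest on 98 to 202 reads in cKO-labelled TAM and 7 or 8 in control TAM, a rate ratio of 12.4 with a 95% exact counting interval of 8.07 to 20.0. Against resident libraries its rise in control TAM was small (log2 change 0.31 ± 0.10, adjusted p = 0.00988), and this call was lost under quantile normalization (log2 change 0.08) and without control TAM replicate 2 (0.25).

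Reads of Chil3 and Chil4 can be confused. Their longest transcripts were 94.3% identical, and 18.5% of the windows of 50 bases in either one occurred in the other. The ratio of Chil3 to Chil4 was 68.3, 56.4 and 52.0 in cKO-labelled TAM and 1133, 769 and 1326 in control TAM. The part of shared reads in the Chil4 level was not tested.

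Chil1, which encodes another chitinase-like protein without enzyme activity, was at 1.82 ± 0.152 FPKM in cKO-labelled TAM, 1.84 ± 0.165 in control TAM and 0.285 ± 0.107 in resident libraries. It rose in control TAM against resident libraries (log2 change 1.15 ± 0.08, adjusted p = 3.51e-09), and between the TAM groups it did not pass the test (adjusted p = 0.949). Chil1 passed the filter on low values through the TAM libraries only, the groups in which it was high. Its resident values rest on 4 to 12 reads a library. The lysosomal enzyme gene Ctbs was at 7.73 ± 0.381 FPKM in cKO-labelled TAM and 9.26 ± 0.771 in control TAM (log2 change -0.23, adjusted p = 0.0190), against 7.40 ± 0.452 in resident libraries. Chid1, a chitinase domain gene, was at 7.08 ± 0.0543 and 8.33 ± 0.183 FPKM in cKO-labelled and control TAM (log2 change -0.21, adjusted p = 0.0159), against 6.40 ± 0.353 in resident libraries. The call of Ctbs between the TAM groups was lost without cKO-labelled replicate 1 (-0.19) or control replicate 2 (-0.18), and that of Chid1 without control replicate 3 (-0.19).

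**Figure D2:**
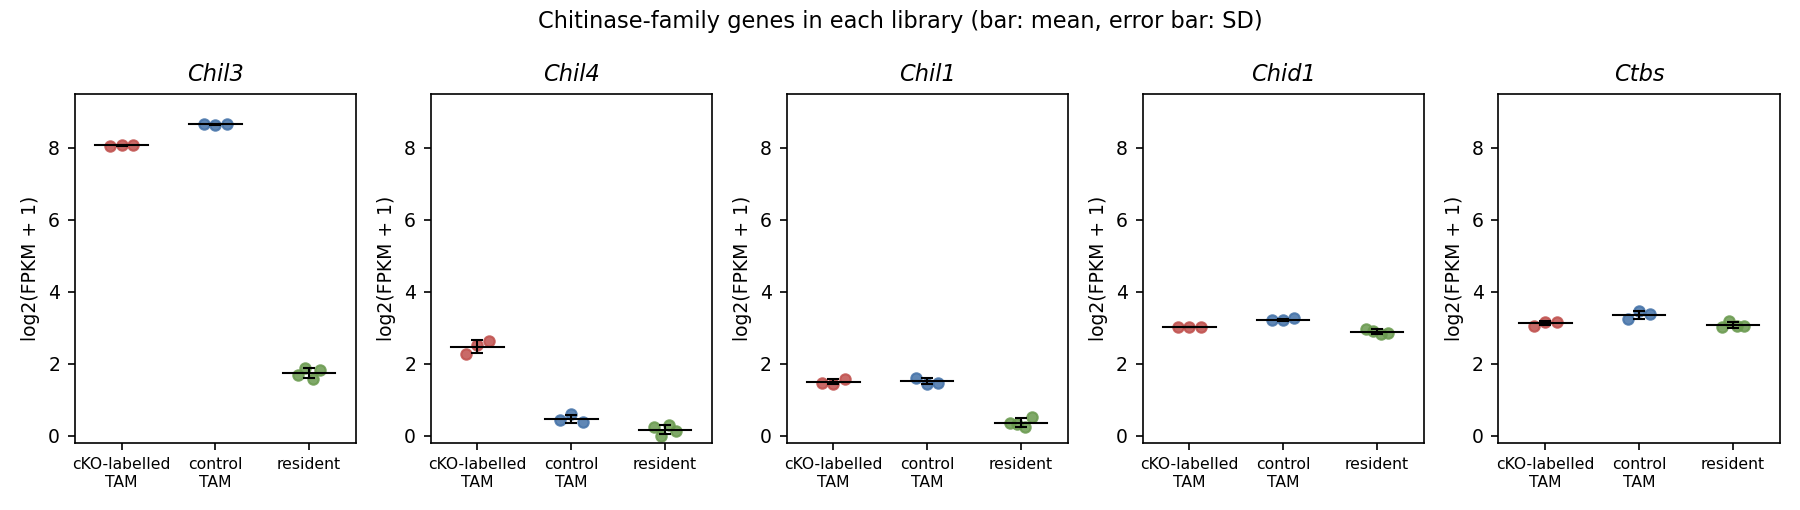
Chil3 and 4 other chitinase-family genes as log2(FPKM + 1) in each library, with cKO-labelled TAM, control TAM and resident macrophages from left to right, 1 point per library, bars at the mean and error bars of 1 SD. Chil3 was lower in cKO-labelled than in control TAM while Chil4 was higher (3.83 to 5.12 FPKM against 0.303 to 0.513 FPKM).

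Retnla and Chil3 are both read as marks of alternative activation, so other genes that interleukin 4 or interleukin 13 induces in mouse macrophages were set beside them. Of 21 tested, 10 rose and 4 fell in cKO-labelled against control TAM, with a median log2 change of 0.08 (0.01 over all genes). Over all genes tested, 20.5% rose and 19.1% fell. After rescaling to a common total 10 rose and 8 fell, and of all 11127 genes tested 1496 rose and 3054 fell. On the log2(FPKM + 1) scale the C-type lectins Clec10a and Mgl2 rose most, while by the ratio of means the low gene Ccl17 stood first (4.70, against 4.57 and 4.29). Clec10a was at 120 ± 3.02 FPKM in cKO-labelled and 26.4 ± 1.81 FPKM in control TAM (log2 change 2.15 ± 0.04, adjusted p = 4.13e-15), and at 208 ± 2.62 FPKM in resident libraries. Mgl2 was at 154 ± 2.94 FPKM in cKO-labelled and 36.0 ± 1.76 FPKM in control TAM (log2 change 2.07 ± 0.03, adjusted p = 5.67e-16), and at 795 ± 3.12 FPKM in resident libraries. Ccl17, a chemokine that attracts T cells, was at 8.46 ± 1.34 FPKM in cKO-labelled and 1.80 ± 0.944 FPKM in control TAM (log2 change 1.80 ± 0.17, adjusted p = 8.58e-07).

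Arg1 and Slc7a2, which handle arginine, were among the 4 that fell and so lay with Chil3 on the lower side. Arg1, which degrades arginine, was at 1968 ± 56.0 FPKM in cKO-labelled TAM and 3269 ± 55.3 FPKM in control TAM (log2 change -0.73 ± 0.04, adjusted p = 6.55e-10). Slc7a2, an arginine transporter, was at 27.7 ± 0.412 and 56.2 ± 1.64 FPKM in cKO-labelled and control TAM (log2 change -0.99 ± 0.07, adjusted p = 1.31e-08). Genes of the same list with little difference between the TAM groups were Alox15, a lipoxygenase, at 1375 ± 11.8 and 1389 ± 20.9 FPKM in cKO-labelled and control TAM (adjusted p = 0.720), and Tgm2, a transglutaminase, at 516 ± 6.16 and 538 ± 14.0 FPKM (adjusted p = 0.189). The lower Alox15 and Tgm2 values passed the test after rescaling to a common total, with log2 changes of -0.09 and -0.14, and that of Tgm2 also under quantile normalization (-0.17).

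Between control TAM and resident libraries 11 of the 21 rose and 5 fell (15 and 5 after rescaling to a common total), with a median log2 change of 0.77 (0.00 over all genes). Over all genes tested, 39.0% rose and 38.1% fell. After that rescaling 5766 of all 11127 genes rose and 2986 fell. Arg1 (log2 change 8.43), Tgm2 (5.77) and Slc7a2 (4.02) were among those that rose, on the side of Chil3. Mgl2 (log2 change -4.43), Clec10a (-2.94) and the mannose receptor gene Mrc1 (-2.92) fell, on the side of Retnla. The level of Retnla over that of Mgl2 was 7.92, 9.18 and 8.31 in cKO-labelled TAM, 6.74, 6.27 and 7.17 in control TAM and 12.4 to 13.7 in resident libraries. Over Clec10a the ratio of Retnla was 9.85 to 11.6 in cKO-labelled TAM, 8.46 to 10.3 in control TAM and 46.8 to 52.3 in resident libraries, so between the TAM groups it overlapped.

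**Figure D3:**
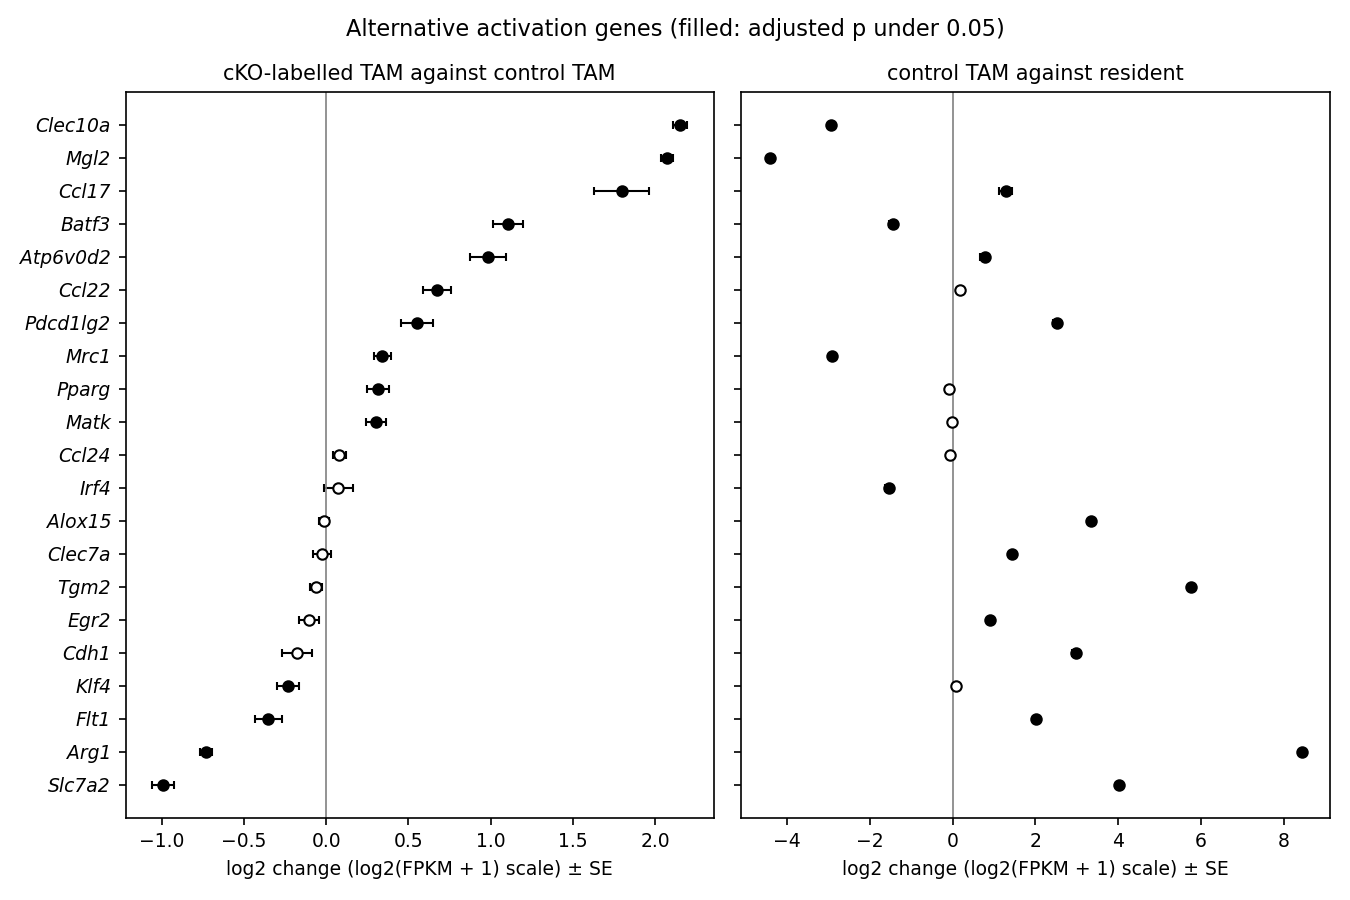
Log2 change on the log2(FPKM + 1) scale, with its SE, of 21 genes that interleukin 4 or interleukin 13 induces, in cKO-labelled against control TAM (left) and control TAM against resident macrophages (right), with filled points for an adjusted p under 0.05. Clec10a (2.15) and Mgl2 (2.07) were highest on the left and fell on the right, while Arg1 and Slc7a2 fell on the left and rose on the right. The 2 panels share the control TAM libraries.

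The ligands, receptors and signalling genes of interleukin 4 and interleukin 13 did not move one way between the TAM groups, with 4 of 12 tested risen and 6 fallen (median log2 change -0.09), against 20.5% and 19.1% of all genes. Il4, the cytokine itself, was low but higher in cKO-labelled TAM, at 17.3 ± 3.63 FPKM against 7.18 ± 1.34 FPKM in control TAM and 2.23 ± 0.906 in resident libraries (log2 change 1.15 ± 0.21, adjusted p = 0.000583). The receptor chain gene Il4ra was at 101 ± 1.32 FPKM in cKO-labelled and 97.5 ± 1.46 FPKM in control TAM and did not pass the test (adjusted p = 0.338). Stat6 was at 96.7 ± 1.97 FPKM in cKO-labelled and 119 ± 2.06 FPKM in control TAM (log2 change -0.29 ± 0.03, adjusted p = 4.84e-06), and at 147 ± 2.40 FPKM in resident libraries. Cish, a feedback inhibitor of cytokine receptors, rose (7.03 ± 0.268 and 5.08 ± 0.131 FPKM in cKO-labelled and control TAM, adjusted p = 0.000493). Socs1, another feedback inhibitor and the last of the 4 by adjusted p (0.0366), lost its call in 5 of the 6 fits that left out 1 TAM library, and kept it without control replicate 2. Its call was also lost under each of the 3 other scalings and at pseudocounts of 0.1 and 0.5, where 3 of the 12 rose. Against resident libraries 8 of the 12 rose and 3 fell in control TAM (39.0% and 38.1% of all genes), among them Il4ra (log2 change 0.95) on the higher and Stat6 (-0.30) on the lower side.

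Among 9 tested myeloid transcription factors 3 rose and 1 fell in cKO-labelled against control TAM (20.5% and 19.1% of all genes), and 4 rose and 5 fell in control TAM against resident libraries (39.0% and 38.1% of all genes). Cebpe, a factor of granulocyte maturation, was at 13.2 ± 1.35 FPKM in cKO-labelled TAM, 6.37 ± 0.842 in control TAM (log2 change 0.95 ± 0.11, adjusted p = 5.44e-06) and 0.435 ± 0.157 in resident libraries. Cebpb, which is needed for Arg1 induction, was at 887 ± 92.0, 935 ± 79.9 and 555 ± 45.5 FPKM in the same order of groups (adjusted p = 0.445 between the TAM groups). Spi1, which encodes PU.1, was at 351 ± 8.20 FPKM in cKO-labelled and 302 ± 5.12 FPKM in control TAM (adjusted p = 0.000335). The 1 gene that fell between the TAM groups was Irf8 (107 and 116 mean FPKM in cKO-labelled and control TAM), a call lost in 4 of the fits with a library left out, those without cKO-labelled replicate 2 or 3 or control replicate 1 or 2 (log2 change -0.11 in each).

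Of 5 tested genes for reported binding partners, 0 rose and 3 fell between the TAM groups, against 20.5% and 19.1% of all genes. Cd44, a hyaluronan receptor that can bind Chil1 protein, was at 39.8 ± 2.06 FPKM in cKO-labelled and 55.0 ± 1.66 FPKM in control TAM (log2 change -0.46 ± 0.05, adjusted p = 6.83e-06). Tlr4, which has been reported to bind resistin, was at 30.5 ± 2.23 and 35.2 ± 2.25 FPKM in cKO-labelled and control TAM (adjusted p = 0.0236), and the kinase gene Btk at 25.03 ± 0.731 and 27.5 ± 0.606 FPKM (adjusted p = 0.0298). The call of Tlr4 was lost without cKO-labelled replicate 1 or 2 or control replicate 1 or 3, and that of Btk without cKO-labelled replicate 1 or 3 or control replicate 2 or 3, while that of Cd44 held in each of these fits. Between control TAM and resident libraries 2 of the 5 rose and 0 fell, against 39.0% of all genes that rose and 38.1% that fell. After rescaling to a common total all 5 rose, and of all 11127 genes tested 5766 rose and 2986 fell.

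Markers of the cells that are known for these genes differed between the groups as well. Of 19 tested markers of tissue-resident macrophages 14 rose and 4 fell in cKO-labelled against control TAM, and all 19 fell in control TAM against resident libraries. Among all genes tested, 20.5% rose and 19.1% fell in the first comparison, and 39.0% rose and 38.1% fell in the second. Their summed level was 2518 to 2581 FPKM in cKO-labelled TAM, 1770 to 1806 in control TAM and 10723 to 10990 in resident libraries, and none was at 0 throughout a group. The lectin gene Cd209f was at 61.3 ± 2.46 FPKM in cKO-labelled TAM, 1.54 ± 0.140 in control TAM and 773 ± 14.1 in resident libraries. Its log2 change between the TAM groups (4.62) was the largest of the list, whose median was 0.44. The 4 that fell were Timd4 (log2 change -0.40), Vsig4 (-0.39), C4b (-0.18) and Stab1 (-0.14). Cd163 did not pass the test (limma adjusted p = 0.119). The ratio of Retnla to Cd209f was 19.5 to 22.3 in cKO-labelled TAM, 149 to 169 in control TAM and 12.8 to 13.7 in resident libraries.

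Acinar and dendritic markers differed in the same directions as Retnla in both comparisons, and lymphoid markers did so between the TAM groups. The shares of all genes to set beside the counts below were 20.5% risen and 19.1% fallen between the TAM groups. Against resident libraries they were 39.0% and 38.1%. Of 10 dendritic and 10 lymphoid markers listed, 7 of each were measured and tested. All 13 acinar genes rose in cKO-labelled against control TAM and all 13 fell in control TAM against resident libraries, with sums of 324 to 334, 75.5 to 79.7 and 29007 to 30873 FPKM in cKO-labelled TAM, control TAM and resident libraries. Dendritic cell markers rose in 5 of 7 cases and fell in 0 between the TAM groups, and fell in 5 and rose in 0 against resident libraries, with sums of 86.6 to 91.3 FPKM in cKO-labelled TAM, 37.9 to 43.7 in control TAM and 198 to 210.2 in resident libraries. T, NK and B cell markers rose in 5 of 7 cases and fell in 0 (3 without cKO-labelled replicate 2) between the TAM groups, and rose in 4 and fell in 3 against resident libraries, with sums of 236 to 242, 92.4 to 99.2 and 871 to 886 FPKM in the same order. Most of these lymphoid sums was Ighm, and without it they were 16.8 to 19.8, 12.1 to 14.3 and 25.6 to 28.4 FPKM. Of 8 sort and macrophage identity genes 6 fell and 0 rose between the TAM groups, and 4 rose and 4 fell against resident libraries, with sums of 2365 to 2413, 2613 to 2627 and 3262 to 3304 FPKM (1916 to 1961, 2077 to 2090.0 and 2028 to 2068 FPKM without Csf1r). Eosinophils can also make Retnla, and of 9 of their markers listed 5 were measured and tested. Of these 5, 4 rose and 0 fell between the TAM groups, and 4 rose and 1 fell against resident libraries. Their sums were 132 to 133 FPKM in cKO-labelled TAM, 88.7 to 91.7 in control TAM and 45.7 to 59.5 in resident libraries. The resident sum was almost all Ear2, and without it the eosinophil sums were 103 to 106, 73.7 to 77.1 and 0.641 to 1.22 FPKM in the same order. The granule gene Prg2 was at 0 in every resident library. The part of these cell types in the Retnla levels was not tested.

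Beside Retnlg stand the neutrophil markers. Of 26 listed, 18 were measured and 17 were tested. Of the 17 tested, 10 rose and 3 fell in cKO-labelled against control TAM (median log2 change 0.34). In control TAM against resident libraries 15 rose and 1 fell (median log2 change 2.58). Among all genes tested, 20.5% rose and 19.1% fell in the first comparison, and 39.0% rose and 38.1% fell in the second. Their summed level was 810.4 to 852 FPKM in cKO-labelled TAM, 602 to 629 in control TAM and 376 to 389 in resident libraries. The resident sum was mostly Mmp9, the 1 gene of the list that fell in control TAM against resident libraries. Without Mmp9 the sums were 685 to 726 FPKM in cKO-labelled TAM, 560.4 to 587 in control TAM and 49.9 to 54.5 in resident libraries. S100a9, a calcium-binding protein that is among the most abundant of neutrophils, was at 57.0 ± 3.44 FPKM in cKO-labelled TAM and 25.4 ± 3.21 in control TAM (log2 change 1.14 ± 0.09, adjusted p = 7.08e-08), and at 0 in 3 of 4 resident libraries. Retnlg was 24.4 to 25.2 times as high as S100a9 in cKO-labelled TAM and 40.7 to 52.8 times as high in control TAM. Cxcr2, the neutrophil chemokine receptor, was at 5.46 ± 0.285 FPKM in cKO-labelled TAM and 1.59 ± 0.148 in control TAM (log2 change 1.32 ± 0.08, adjusted p = 4.04e-09). Prtn3, a protease of granulocyte precursors, fell (95.6 ± 2.90 and 128 ± 0.427 FPKM in cKO-labelled and control TAM, adjusted p = 5.57e-05). The part of neutrophils in the Retnlg level was not tested.

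Beside Chil3 stand the monocyte markers, of which 4 of 14 tested rose and 3 fell in cKO-labelled against control TAM. After rescaling to a common total 3 of the markers rose and 5 fell, and of all 11127 genes 1496 rose and 3054 fell. In control TAM against resident libraries 13 markers rose and 0 fell, as deposited. Among all genes tested, 20.5% rose and 19.1% fell in the first comparison, and 39.0% rose and 38.1% fell in the second. Their summed level was 1929 to 2065 FPKM in cKO-labelled TAM, 1889 to 1950 in control TAM and 444 to 485 in resident libraries, and none was at 0 throughout a group. Ly6c2, the surface antigen of inflammatory monocytes, fell like the level of Chil3. It was at 18.6 ± 1.68 FPKM in cKO-labelled and 24.1 ± 1.11 FPKM in control TAM (log2 change -0.36 ± 0.08, adjusted p = 0.00236). F10 (log2 change -0.37) and S100a4 (-0.31) also fell. The 4 that rose, opposite to Chil3, were Msrb1 (log2 change 0.46), Thbs1 (0.38), Ifitm6 (0.29) and Hp (0.28). Plac8, another monocyte gene, was at 374 ± 6.52 and 364 ± 7.98 FPKM in cKO-labelled and control TAM and did not pass the test (adjusted p = 0.513). The ratio of Chil3 to Ly6c2 was 13.2 to 15.6 in cKO-labelled TAM, 15.8 to 17.1 in control TAM and 1.99 to 3.31 in resident libraries. The part of monocytes in the Chil3 level was not tested.

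**Figure D4:**
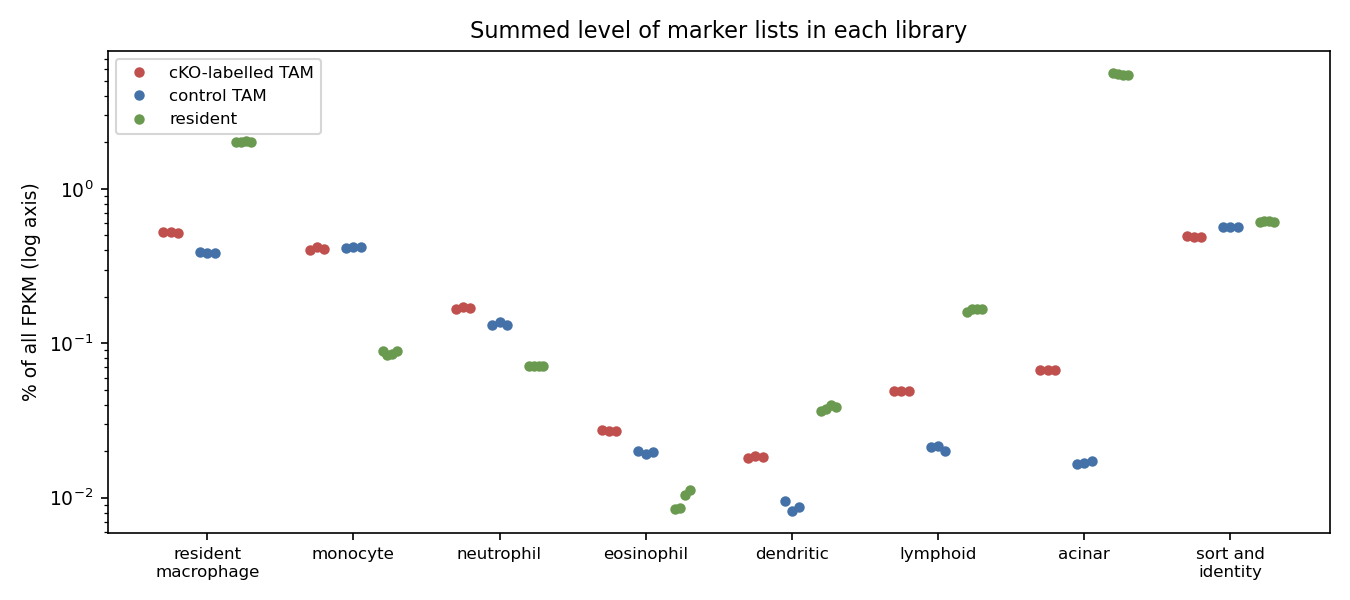
Summed level of 8 marker lists as a percentage of all FPKM (log axis) in each library, with cKO-labelled TAM, control TAM and resident macrophages from left to right within each list, 1 point per library. The resident macrophage list held 0.519% to 0.523% in cKO-labelled TAM, 0.384% to 0.393% in control TAM and 2.02% to 2.03% in resident libraries, and the neutrophil list 0.168% to 0.173%, 0.131% to 0.136% and 0.0707% to 0.0716% in the same order, the last of these mostly Mmp9.

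Genes near the 3 loci were set beside them. Within 500 kb of Retnla, start to start, 8 protein-coding genes are annotated, and 3 were measured: Retnlg, Dzip3 and C330027C09Rik. Dzip3, a ubiquitin ligase gene, was at 0.728 ± 0.193 FPKM in cKO-labelled TAM, 0.626 ± 0.133 in control TAM and 1.25 ± 0.0312 in resident libraries. C330027C09Rik was at 1.49 ± 0.191, 2.01 ± 0.0776 and 0.549 ± 0.0879 FPKM in the same order. Within 500 kb of Chil3, 17 protein-coding genes are annotated and 11 were measured. The largest change among these 11 between the TAM groups was that of Chil4, followed by Tmigd3 (7.17 ± 0.799 FPKM in cKO-labelled and 4.48 ± 0.416 in control TAM, log2 change 0.57, adjusted p = 0.000351) and the adenosine receptor gene Adora3 (3.78 ± 0.153 and 2.35 ± 0.596 FPKM, log2 change 0.52, adjusted p = 0.00267). At a pseudocount of 0.1 neither Tmigd3 (0.66) nor Adora3 (0.69) passed the test. Both share the direction of Chil4 and not that of Chil3. The annotated spans of Tmigd3 (105870903 to 105924042) and Adora3 (105870858 to 105908926) overlap on the plus strand. They are therefore not 2 separate neighbours, and the part of shared reads in their levels was not tested.

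Likeness of pattern was measured as the root mean square difference of centred log2(FPKM + 1) values over the 10 libraries, among 5635 genes with a mean of at least 10 FPKM in a group. It describes these libraries, which fall into 3 groups, and carries no test. Most like Retnla were Chp2 (0.14), Ighj4 (0.26), Gas6 (0.34), Fcrls (0.36) and Cd209d (0.39), against a median of 2.28 over all genes compared. Chp2, a calcineurin-like protein gene, was at 11.6 ± 0.421 FPKM in cKO-labelled TAM, 0.949 ± 0.0629 in control TAM and 80.1 ± 1.73 in resident libraries. Its cKO-labelled mean was 12.2 times that in control TAM, against 5.41 times for Retnla. Its control TAM mean was lower than the resident mean by a factor of 84.4, against 42.5 for Retnla. Ighj4, an immunoglobulin J segment, was at 3.38 ± 1.06, 0 and 32.7 ± 5.84 FPKM in the same order of groups. For such low genes the likeness rests partly on the added 1. Gas6, a ligand of receptor tyrosine kinases, was at 82.5 ± 0.972, 21.8 ± 0.314 and 550 ± 8.66 FPKM in the same order. Most like Chil3 were AA467197 (0.20), Ly6a (0.30), Spp1 (0.45), Tgm2 (0.48) and I830127L07Rik (0.48), against a median of 3.22. AA467197 was at 90.9 ± 3.68 FPKM in cKO-labelled TAM, 158 ± 4.77 in control TAM and 0.330 ± 0.225 in resident libraries. Genes stood farther from Retnlg, the most like it being Arg1 (1.00), I830127L07Rik (1.21), Spp1 (1.25), Chil3 itself (1.67) and AA467197 (1.73), against a median of 4.84. All 5 had lower means in cKO-labelled than in control TAM, while Retnlg had a higher one. For Spp1 the difference was small (1043 ± 19.6 and 1056 ± 9.31 FPKM in cKO-labelled and control TAM), and its libraries overlapped.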

How the data were processed

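RNA of 10 libraries was measured, per the labels' protocols with SMART-Seq v4 amplification and Nextera XT libraries, which do not mark strand, after either of 2 extraction kits. The authors deposited FPKM, and the submitters' processing notes name STAR, edgeR, mm10 and GRCm38 without versions or roles. Sources used here do not give the library scaling, the gene filter or the read length. All 10 columns were matched by title.

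Genes of at least 1 FPKM in at least 3 libraries (11127) were tested with limma 3.58.1 in R 4.3.3 on log2(FPKM + 1), which understates the change of low genes: 1 fit of 3 group means, a variance trend, and Benjamini-Hochberg adjustment over all genes at 0.05. FPKM are not counts, so no count test was run. Reads were recovered from FPKM with the longest GENCODE M21 transcript as gene length, and 87.9% to 88.6% of values between 1 and 200 reads came out whole within 0.05. Counting intervals cover counting error only. Libraries of 1 group differed by 1.76 to 2.90 times counting noise (median squared difference, 12 pairs), so each library was kept as 1 replicate.

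The members and the 13 gene lists were chosen with earlier results of these data known. Non-members are named by list (the largest changes past the threshold and the most abundant), by distance (500 kb) or by likeness. Not every gene that this rule picks is printed. Ratios between genes and the promoter motifs were chosen after values or sequences were seen. So were Il4ra, Alox15, Tgm2, Plac8, Cish, Irf8, Btk, Stat6, Mrc1, Prtn3 and Adgre1, where outside that rule. The same holds for S100a4, Ifitm6, Timd4, Vsig4, C4b, Stab1 and Cd163, named to show other directions within a list. Simulated data with known changes were used to test the fit. Alternatives were pseudocounts of 0.1 and 0.5, no filter, a filter of 5 FPKM, 3 other scalings, only the groups compared, a replicate block, and each library left out.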

Additional observations from a re-analysis of the deposited data

Results flagged for a closer look

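Among 104 genes with 4 resident libraries compared, 6 had 1 resident library far from the other 3, and chance alone flags about 1 in 20 such groups. Spi1 was at 277 FPKM in resident replicate 1 and at 252 to 254 in the others. Cd68 was at 960.4 FPKM in resident replicate 1 and at 905 to 908 in the others. The acinar gene Cel was at 2606 FPKM in resident replicate 1 and at 2490 to 2507 in the others. C330027C09Rik was at 0.418 FPKM in resident replicate 4 and at 0.580 to 0.603 in the others. Cxcr2 was at 0.0543 FPKM in resident replicate 3 and S100a9 at 0.128 FPKM in resident replicate 4, and both were at 0 in the other 3 resident libraries. None of Retnla, Retnlg and Chil3 had such a library.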

How the results depend on the processing

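The direction of the Retnla, Retnlg and Chil3 differences held under every alternative run. Between cKO-labelled and control TAM their log2 differences were 2.35, 0.20 and -0.66 after rescaling to a common total, and Retnla and Chil3 were at 2.51 and -0.68 under quantile normalization. Between control TAM and resident libraries Retnla was at -5.19 rescaled and -5.05 quantile normalized, and Chil3 at 7.08 rescaled, 7.35 at a pseudocount of 0.1 and 7.13 at 0.5. Retnlg, with 1 to 5 resident reads, was at 11.6 and 10.5 at those pseudocounts. A filter of 5 FPKM left 2 relatives, both risen in control TAM. With a library left out, 3496 to 4611 genes were called between the TAM groups and 8237 to 8559 against resident libraries. The sign of Lyz2 (0.073, quantile normalized) and Dram2 (0.069, rescaled) reversed in control TAM against resident libraries. Same-numbered libraries did not deviate together over all genes (correlations of -0.06 to 0.11). This check cannot exclude a shared preparation with small effects or effects on few genes. With the replicate number as a block, 4342 and 8396 genes were called, against 4410 and 8577. Of the other 4196 values recomputed for named genes and context lists, 4108 were counted as unchanged. For a gene this meant the same side of the threshold, and the same direction where it passed. For a list it meant a similar number of members called. At 0.122 to 0.390 mean FPKM, Chil4 in control TAM and resident libraries is limited by depth.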
